A study of Drosophila melanogaster with 6 samples.

Results

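A CG number is the systematic identifier of a Drosophila melanogaster protein-coding gene, used as its symbol until a name is given. In the deposited data, 119 genes listed by such numbers stood far higher in fio mutant larvae than in rescue or control larvae. They were chosen by their counts in all 6 libraries of the study. A gene was taken when its mean in the mutant libraries was at least 5 CPM, counts per 1000000 counts of the library, and its lower mutant value was at least 4 times the highest of the other 4 libraries. Of 7027 eligible CG-numbered protein-coding genes, 3508 reached the mean of 5 CPM, and 119 of these, or 3.39%, also reached the ratio. The mirror rule, for genes lowered in both mutant libraries, found 22. Because the mutant, rescue and control values selected the genes, the height of the mutant level is a description and was not tested.

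Polyadenylated RNA of larvae was sequenced in 2 libraries for each of 3 genotypes. Mutant larvae were fiomut/fiomut ;U6mut/U6+, with fio mutant on both chromosomes and 1 mutant copy of U6. Rescue larvae were fiomut ,[U6+]/fiomut ;U6mut/U6+, the mutant genotype with an element written [U6+], read here as an added copy of U6. Control larvae were fiomut/cyo, with 1 fio mutant chromosome over the CyO balancer. The fio mutation is therefore carried by all 3 groups, the U6 mutation is named for mutant and rescue larvae, and the balancer is named for control larvae, which the labels also call wt. The labels leave out the nature of the fio mutation, the age of the larvae and how many were pooled. They also do not state that replicate libraries had separate cultures, and p-values measure only how far these libraries vary, which may be technical.

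METTL16 is an RNA methyltransferase known for placing N6-methyladenosine (m6A) on U6, the small nuclear RNA at the catalytic centre of the spliceosome, and the title of the study names it as the subject. The labels do not spell out fio, which is read here as the METTL16 gene from that title. Many CG-numbered genes of the fly belong to large families of digestive, detoxifying and secreted proteins, often lying side by side on a chromosome. The larval midgut makes most of the digestive enzymes, and the Malpighian tubules are the excretory organ of the fly.

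The libraries held 15983161 to 17847161 counts. Levels are given as CPM of a library scaled by trimmed-mean (TMM) factors, which ran between 0.820 in control 1 and 1.11 in rescue 2. Scaling to column totals in place of TMM moves the median log2 difference of all genes by 0.21 for mutant against control, by -0.11 for mutant against rescue and by 0.32 for rescue against control. CPM does not divide by gene length, so a higher CPM in one gene than in another says how many reads it drew, and levels per length are given as the authors' FPKM.

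The 119 genes took a far larger share of the RNA in mutant larvae. They held 3.07% and 3.23% of the counts of the mutant libraries, 0.368% and 0.347% in rescue and 0.177% and 0.167% in control. The median level over the 119 genes was 71.2 and 68.9 CPM in mutant, 5.87 and 4.37 CPM in rescue and 5.41 and 5.23 CPM in control larvae. The median ratio of group means was 13.8 for mutant over control and 10.6 for mutant over rescue, with lowest values of 5.03 and 4.87. The increase was unevenly shared: the 8 genes with the most reads in mutant larvae made up 45.6% of the summed mutant level, 54 genes reached a mean of 100 CPM and 11 stayed under 10 CPM, counts that depend on gene length too. All 119 passed the filter on low counts, which mutant levels alone could satisfy, and 109 of them passed when only rescue and control libraries were considered.

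**Figure D1:**
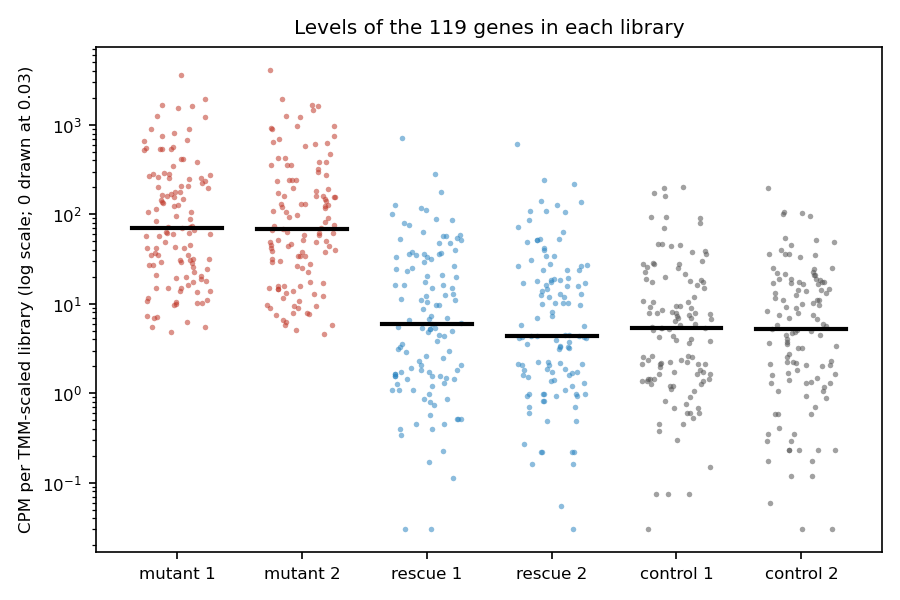
CPM per TMM-scaled library (log scale, values of 0 drawn at 0.03) of the 119 genes in each of the 6 libraries, 1 point a gene, with a bar at the median. The medians of both mutant libraries, 71.2 and 68.9 CPM, stand above those of the rescue libraries, 5.87 and 4.37 CPM, and of the control libraries, 5.41 and 5.23 CPM.

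In edgeR's quasi-likelihood test with Benjamini-Hochberg adjustment over 11866 genes, 9.94% of all genes passed as higher in mutant than in control larvae and 7.04% as lower. Against rescue larvae these shares were 8.47% and 7.61%. Of the 119 genes, 118 were called higher against control and 117 against rescue, counts that follow from how the genes were selected and from which nothing is read.

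Most of the gut markers tested were called higher in mutant than in control larvae, and fewer of them against rescue larvae. None of the marker genes could belong to the 119, since the rule takes only genes listed by a CG number. Each list was counted in the same edgeR fit as the genes. Of 42 midgut digestive enzyme genes tested, 27 were called higher and 0 lower in mutant than in control larvae, and their summed level was 47777 and 49459 CPM in mutant, 14214 and 7542 CPM in rescue and 6361 and 4907 CPM in control larvae. No gene of this list was lower at an unadjusted p under 0.05 or by DESeq2 either, and DESeq2 called 30 higher. The count of 27 became 17 when mutant 1 was left out. Jon65Aiv, a serine protease of the Jonah family, had 12549.5 and 16146 CPM in mutant, 1813 and 2463 CPM in rescue and 1040.4 and 1366 CPM in control larvae. Of 7 midgut identity genes, 6 were higher, among them GATAe, a transcription factor of the endoderm, with 37.9 and 56.8 CPM in mutant, 12.9 and 9.72 CPM in rescue and 3.16 and 5.34 CPM in control larvae, and mex1, a gene of midgut enterocytes, with 105 and 73.9 CPM in mutant, 19.8 and 19.5 CPM in rescue and 8.19 and 10.2 CPM in control larvae. In mutant against rescue larvae, 5 of the 7 identity genes were called higher and 0 lower. The summed level of the midgut identity genes was 603 and 726 CPM in mutant, 173 and 190.5 CPM in rescue and 132 and 111 CPM in control larvae. The summed level of the 119 genes, for reference, was 30408 and 31161 CPM in mutant, 3349 and 3128 CPM in rescue and 2154 and 1754 CPM in control larvae.

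Of 8 Malpighian tubule genes, 6 were called higher in mutant than in control larvae and 5 higher than in rescue larvae. The 8 genes summed to 576 and 585 CPM in mutant, 234 and 229 CPM in rescue and 186 and 126 CPM in control larvae. Of 10 detoxification genes, 6 were called higher in mutant than in control larvae and 4 higher than in rescue larvae. All 10 together summed to 2618 and 1441 CPM in mutant, 2074 and 2156 CPM in rescue and 1368 and 1231 CPM in control larvae. Most of this was GstD1, which was not called, with 1493 and 796 CPM in mutant, 1573 and 1655 CPM in rescue and 1222 and 981 CPM in control larvae. Lists of other tissues held genes called lower: 5 of 7 salivary gland genes were lower in mutant than in control larvae, as were 7 of 7 epidermis genes, 3 of 6 muscle genes, 3 of 6 neuron genes, 2 of 7 fat body genes, 1 of 10 testis genes and 0 of 6 hemocyte genes, and none of these lists had a gene called higher. At an unadjusted p under 0.05 edgeR had 0 hemocyte genes lower or higher and 1 testis gene higher, and DESeq2 called 0 genes of these lists higher. For hemocytes, however, 3 of 6 genes were called higher in mutant than in rescue larvae. Against rescue larvae, 0 muscle and 0 testis genes were called lower in mutant larvae, with median log2 fold changes of 0.68 and 0.51. In the same comparison 5 salivary gland, 4 epidermis, 3 neuron and 2 fat body genes were called lower. The salivary gland list summed to 38.9 and 464 CPM in mutant, 13196 and 12959 CPM in rescue and 2606 and 7508 CPM in control larvae. Its 6 Sgs genes, which encode glue proteins made late in larval life, accounted for 23.3 and 434 CPM of this in mutant, 13155 and 12918 CPM in rescue and 2573.5 and 7470.0 CPM in control larvae, and all 5 genes called lower were among them. Epidermis genes, mainly larval cuticle proteins, summed to 17429 and 14090.0 CPM in mutant, 41131 and 34544 CPM in rescue and 72365 and 47389.6 CPM in control larvae, and muscle genes to 29163 and 29609.5 CPM in mutant, 17508 and 15989 CPM in rescue and 74547 and 43664 CPM in control larvae. No marker gene found in the table was at 0 in every library. The part of tissue proportions or larval stage in the levels of the 119 genes was not tested, and in RNA of larvae more cells of a type and more RNA per cell cannot be told apart.

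The gene with the most reads among the 119 was CG15784, a single-exon gene on chromosome X, 5429571 to 5432526. It had 3580.2 and 4113 CPM in mutant, 705 and 607 CPM in rescue and 199 and 195 CPM in control larvae, a mean of 3846 ± 376 CPM in mutant and 197 ± 2.61 CPM in control larvae (SD, n = 2 each). Its rescue level lay between the other genotypes and overlapped neither. CG6933 had 1641 and 1939 CPM in mutant, 176 and 244 CPM in rescue and 92.7 and 96.8 CPM in control larvae, and CG31198 had 1565 and 1672 CPM in mutant, 282 and 218 CPM in rescue and 93.1 and 103 CPM in control larvae. Both showed the same order as CG15784, with the rescue libraries above both control libraries and far below the mutant libraries.

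CG33128 reached 1654 and 1610.1 CPM in mutant, 32.1 and 26.9 CPM in rescue and 202 and 35.3 CPM in control larvae. Its control libraries were far apart, and the lower of them was close to the rescue libraries. CG5767, with 552 and 964 CPM in mutant, 36.5 and 18.3 CPM in rescue and 90.7 and 21.4 CPM in control larvae, and CG9682, with 573 and 909.9 CPM in mutant, 33.3 and 30.9 CPM in rescue and 175 and 48.7 CPM in control larvae, also had control 1 well above control 2. In these 3 genes the ratio of mutant to rescue, 55.4, 27.6 and 23.1, was larger than that of mutant to control, 13.8, 13.5 and 6.62.

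CG31789 took the opposite form, with 1966 and 1227 CPM in mutant, 127 and 128 CPM in rescue and 7.29 and 36.1 CPM in control larvae. Control 2 was the higher control library here, and both rescue libraries lay above it. CG5084 showed 802 and 641 CPM in mutant, 51.8 and 142 CPM in rescue and 28.6 and 14.6 CPM in control larvae, again with both control libraries lowest. For CG31789 and CG5084 the mutant to control ratios of 73.6 and 33.5 exceeded the mutant to rescue ratios of 12.5 and 7.44.

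In the remaining genes of the highest 12, rescue and control means differed less. CG7298 had 1223 and 1252 CPM in mutant, 116 and 109.9 CPM in rescue and 46.9 and 106 CPM in control larvae. CG7290, which lies beside CG7298, had 909 and 1471 CPM in mutant, 101 and 138 CPM in rescue and 162 and 99.8 CPM in control larvae, with overlapping rescue and control libraries. CG5399 had 1263 and 973 CPM in mutant, 76.6 and 109 CPM in rescue and 69.5 and 54.4 CPM in control larvae. CG10910 had 519 and 929 CPM in mutant, 37.5 and 52.8 CPM in rescue and 47.05 and 17.7 CPM in control larvae. The rescue and control libraries of CG10910 overlapped and stood roughly an order of magnitude below both mutant libraries.

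Per length the order of the leading genes differed. By the authors' FPKM the highest was the short gene CG31789, with 2777 and 1767 FPKM in mutant, 179 and 181 FPKM in rescue and 10.7 and 51.2 FPKM in control larvae. CG15784 followed with 1189 and 1393 FPKM in mutant, 234 and 201 FPKM in rescue and 68.7 and 65.2 FPKM in control larvae, CG6933 with 1139 and 1372 FPKM in mutant, 122 and 169 FPKM in rescue and 66.9 and 67.5 FPKM in control larvae and CG33128 with 1171 and 1162 FPKM in mutant, 22.7 and 18.96 FPKM in rescue and 148 and 25.1 FPKM in control larvae. The 2 mutant libraries of CG31789 differed more than those of the other 3, and its FPKM in mutant 1 was the highest of these 4 genes in any library.

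The clearest separation, by the ratio of the lower mutant library to the highest of the rest, was that of CG7248, on chromosome 3L, 11954083 to 11956780, at 146. It had 35.1 and 58.6 CPM in mutant, 0.114 and 0.218 CPM in rescue and 0.0752 and 0.117 CPM in control larvae. Those control values rest on 3 counts in all, and the ratio of mutant to control, 475, has a 95% interval of 162 to 2304 that covers counting error only. CG34026 likewise had 3 control counts, and its mutant to control ratio of 387 has an interval of 132 to 1878. CG11384 had no control count: its level was 5.56 and 5.85 CPM in mutant, 0.228 and 0.164 CPM in rescue and 0 and 0 CPM in control larvae, at least 57.7-fold higher in mutant than in control larvae when 3 counts over the control libraries are taken as the floor.

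CG5550 had 177 and 148 CPM in mutant, 1.82 and 4.31 CPM in rescue and 1.65 and 0.587 CPM in control larvae. CG4835 had 62.2 and 129 CPM in mutant, 0.969 and 2.24 CPM in rescue and 1.804 and 0.587 CPM in control larvae, and CG5883 had 88.7 and 58.5 CPM in mutant, 0.741 and 1.42 CPM in rescue and 2.18 and 2.76 CPM in control larvae. The rescue libraries of CG5883 lay below both control libraries, whereas those of CG4835 overlapped them. CG4377 had 42.3 and 37.5 CPM in mutant, 1.08 and 0.983 CPM in rescue and 1.43 and 1.59 CPM in control larvae, and CG12766 had 25.5 and 13.8 CPM in mutant, 0.513 and 0.164 CPM in rescue and 0.752 and 0.0587 CPM in control larvae. In each of the 8 genes with the highest ratio, no rescue or control library exceeded 4.31 CPM.

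Over all 119 genes the ratio had a median of 6.55, with 25 genes at 10 or more and 10 at 20 or more. The highest of the other 4 libraries, in CPM of column totals, was a rescue library for 88 genes and a control library for 31. A pair of genes had almost no reads in rescue larvae. CG18404 had 0 rescue counts and 10.5 and 9.55 CPM in mutant, 0 and 0 CPM in rescue and 0.601 and 0.176 CPM in control larvae, at least 120-fold higher in mutant than in rescue larvae with a floor of 3 counts over the rescue libraries. CG15127 had 1 rescue count and a mutant to rescue ratio of 214, with an interval of 38.1 to 8513.

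**Figure D2:**
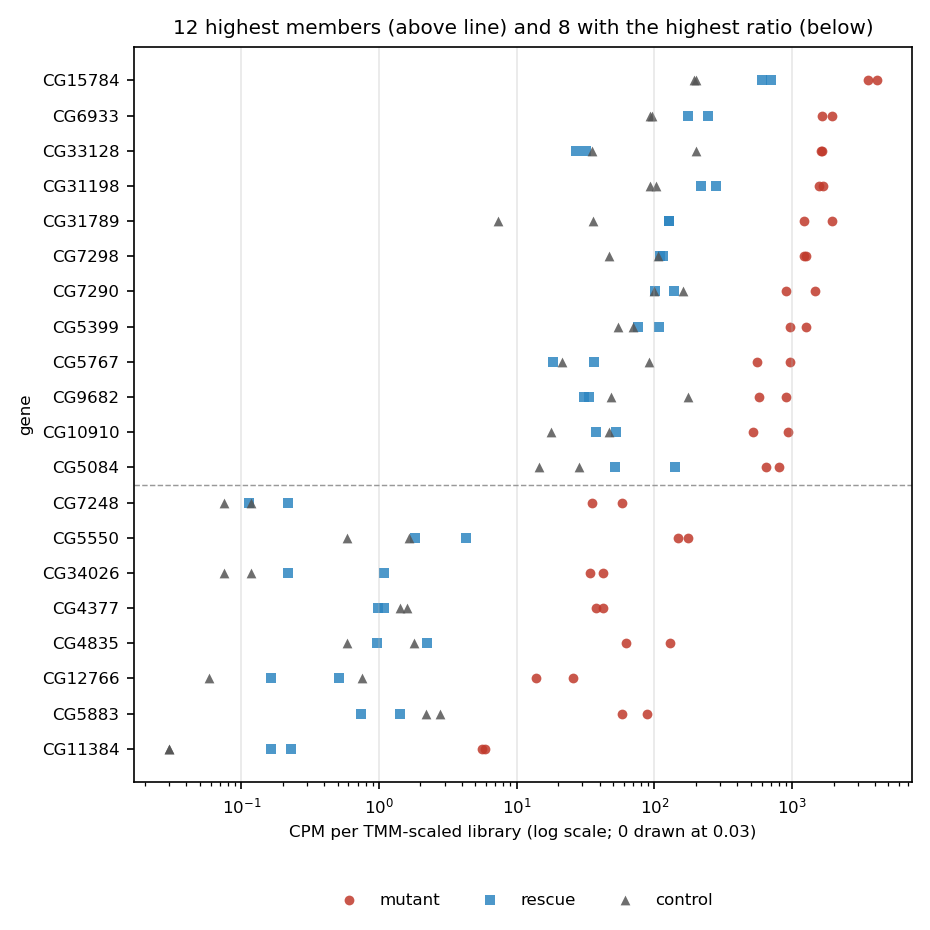
CPM per TMM-scaled library (log scale, 0 drawn at 0.03) in each of the 2 mutant, 2 rescue and 2 control libraries for the 12 genes with the highest mean mutant CPM and, under the line, the 8 with the highest ratio. Mutant points stand to the right for every gene. Among the first 12, rescue points lie above the control points for CG15784, CG6933, CG31198, CG31789, CG7298, CG5399 and CG5084. They lie below them for CG33128 and CG9682 and overlap them for CG7290, CG5767 and CG10910.

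RefSeq gives 12 of the 119 genes a name of their own and others a family synonym, which allows some to be ordered by what their proteins do. UDP-glycosyltransferases, enzymes that attach sugars to small lipophilic compounds, gave 3 genes. Ugt37A2 (CG5724) had 116 and 119 CPM in mutant, 10.4 and 9.88 CPM in rescue and 16.2 and 12.6 CPM in control larvae. Ugt49B1 (CG4302) had 60.4 and 42.5 CPM in mutant, 7.24 and 3.17 CPM in rescue and 6.99 and 8.28 CPM in control larvae, and its neighbour Ugt49C1 (CG15661) had 22.6 and 13.2 CPM in mutant, 1.71 and 0.491 CPM in rescue and 0.376 and 0.235 CPM in control larvae. Ugt49B1 and Ugt49C1 lie in tandem on chromosome 2R. In Ugt49C1 both rescue libraries lay above both control libraries, and in Ugt37A2 both lay below.

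Alkaline phosphatases gave 2 genes. Alp12 (CG16771) had 149 and 122 CPM in mutant, 26.8 and 19.5 CPM in rescue and 11.9 and 11.1 CPM in control larvae, with the rescue libraries above both control libraries. Alp7 (CG3292) had 10.8 and 66.6 CPM in mutant, 0.342 and 1.31 CPM in rescue and 0.1503 and 1.996 CPM in control larvae. In Alp7, mutant 2 stood 6.15 times above mutant 1 and control 2 stood 13.3 times above control 1, so its level differed widely between libraries of the same genotype. The control ratio rests on very few counts in control 1, at 0.1503 CPM, and its size is uncertain.

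Genes of lipid handling were Acbp6 (CG15829), an acyl-CoA-binding protein, Agpat4 (CG4753), an acyltransferase that makes phosphatidic acid, and Acsx1L (CG6300), which is named for acyl-CoA synthetases. Acbp6 had 292 and 274 CPM in mutant, 57.7 and 24.1 CPM in rescue and 36.4 and 39.6 CPM in control larvae. Agpat4 had 170.4 and 159 CPM in mutant, 33.4 and 34.4 CPM in rescue and 27.5 and 22.7 CPM in control larvae, and its mutant to rescue ratio of 4.87 was the lowest of the 119 genes. Acsx1L had 10.2 and 9.02 CPM in mutant, 0.513 and 1.86 CPM in rescue and 1.43 and 0 CPM in control larvae, with no count in control 2.

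Membrane proteins were OtopLb (CG3332), of the otopetrin family of proton channels, and Cubn2 (CG42255), named for the endocytic receptor cubilin. OtopLb had 84.7 and 140.3 CPM in mutant, 15.1 and 10.3 CPM in rescue and 17.4 and 18.6 CPM in control larvae. Cubn2 had 13.9 and 7.94 CPM in mutant, 0.399 and 0.6005 CPM in rescue and 2.104 and 0.411 CPM in control larvae, with control 1 above control 2. OtopLb was lower in both rescue libraries than in both control libraries.

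Proteins named for peptidases were Nepl11 (CG9780), of the neprilysin-like family, CG33127, listed by RefSeq as serine protease homolog SPH235, and CG11192, listed as serine protease SP82. CG33127 had 206 and 162 CPM in mutant, 20.9 and 16.98 CPM in rescue and 15.03 and 13.8 CPM in control larvae. Nepl11 had 57.9 and 50.5 CPM in mutant, 3.82 and 1.53 CPM in rescue and 8.19 and 4.76 CPM in control larvae. CG11192 had 15.2 and 15.8 CPM in mutant, 0.456 and 1.69 CPM in rescue and 0.601 and 3.76 CPM in control larvae, with 1 library of each of the rescue and control pairs well above the other.

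CG31288, CG16898, CG31974 and CG31104 carry RefSeq synonyms read here, without certainty, as the numbering of the ecdysteroid kinase-like family, which is named for an enzyme that phosphorylates ecdysteroid hormones in the silkworm. CG31288 had 203 and 130.05 CPM in mutant, 17.6 and 6.93 CPM in rescue and 9.02 and 8.98 CPM in control larvae. CG16898 had 223 and 63.5 CPM in mutant, 0.855 and 3.71 CPM in rescue and 8.57 and 9.81 CPM in control larvae, with mutant 1 at 3.52 times mutant 2. CG31974 had 61.5 and 76.9 CPM in mutant, 7.01 and 4.203 CPM in rescue and 7.74 and 11.2 CPM in control larvae, and CG31104 had 15.1 and 15.05 CPM in mutant, 1.197 and 0.218 CPM in rescue and 0.451 and 0.235 CPM in control larvae. In CG16898 both rescue libraries lay below both control libraries, and in CG31104 the rescue and control libraries overlapped. CG12780, which RefSeq lists as GNBP-like after the Gram-negative bacteria-binding proteins of immune recognition, had 6.23 and 5.14 CPM in mutant, 0.798 and 0.491 CPM in rescue and 0.827 and 0.294 CPM in control larvae.

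All 119 genes have the start and end that RefSeq Release 6 gives them, so positions are printed as deposited. They lie on every major arm, with 33 on 3R, 27 on 2R, 25 on 3L, 24 on 2L and 10 on X. The X held 8.40% of them and 16.9% of the 3508 eligible genes at 5 CPM or more. Their median gene length was 1509 bases, against 1816 in the other 3389 eligible genes, and both sets had a median of 3 exons, with 16.8% and 13.9% single-exon genes. These structural values were not tested. Of the 119 genes, 38 overlap another gene, 9 of them on the same strand, and since the strand setting of the counting is not given in the sources used here, reads of overlapping genes cannot be told apart.

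Some of the genes lay near one another. With a gap of at most 10 kb, 43 of the 119 fell into 19 clusters, of which 5 held 3 genes. The share for other CG-numbered genes was not computed, so these counts are a description only. On 2L from 4004984 to 4009090 these were CG15422, CG15423 and CG43774, all on the plus strand. CG15423 had 209 and 157 CPM in mutant, 10.9 and 14.03 CPM in rescue and 10.4 and 11.6 CPM in control larvae, CG15422 had 138 and 110.3 CPM in mutant, 20.1 and 12.01 CPM in rescue and 7.97 and 6.93 CPM in control larvae and CG43774 had 60.1 and 48.5 CPM in mutant, 5.87 and 5.62 CPM in rescue and 5.41 and 4.87 CPM in control larvae. Both rescue libraries lay above both control libraries in CG15422 and CG43774, and the groups overlapped in CG15423.

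On 2R from 18044046 to 18049922 lay CG5770, CG5767 and CG14495, all on the minus strand. CG5770 had 195 and 322 CPM in mutant, 12.8 and 17.2 CPM in rescue and 38.3 and 14.1 CPM in control larvae, with control 1 above control 2 as in CG5767. CG14495 had 4.84 and 6.33 CPM in mutant, 0.855 and 0.928 CPM in rescue and 0.526 and 0.235 CPM in control larvae, with both rescue libraries above both control libraries. On 2R from 21820662 to 21836357, CG13492 had 414 and 689.5 CPM in mutant, 89.1 and 86.1 CPM in rescue and 38.9 and 32.9 CPM in control larvae. In the same cluster, CG4363 had 71.2 and 46.5 CPM in mutant, 3.13 and 3.55 CPM in rescue and 6.69 and 2.29 CPM in control larvae. The remaining gene of this cluster, CG4377, is given above. The rescue libraries of CG13492 stood above both control libraries, while those of CG4363 lay between the control libraries.

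On 3R from 7786170 to 7793483 the cluster was CG18748, CG18746 and CG10086, with CG10086 on the opposite strand. CG10086 had 49.1 and 61.4 CPM in mutant, 9.57 and 10.3 CPM in rescue and 5.94 and 7.46 CPM in control larvae, and CG18748 had 24.4 and 22.9 CPM in mutant, 5.299 and 3.93 CPM in rescue and 2.33 and 2.52 CPM in control larvae. CG18746 had 7.02 and 6.57 CPM in mutant, 0.399 and 0.819 CPM in rescue and 1.202 and 1.06 CPM in control larvae, the only one of the 3 with the rescue libraries below both control libraries. On 3R from 29587237 to 29590906, CG7567 had 534 and 359 CPM in mutant, 16.2 and 18.1 CPM in rescue and 5.79 and 16.6 CPM in control larvae. CG11470 had 63.7 and 61.6 CPM in mutant, 6.04 and 4.37 CPM in rescue and 1.05 and 4.05 CPM in control larvae and CG31041 had 66.2 and 81.9 CPM in mutant, 1.25 and 1.09 CPM in rescue and 5.41 and 5.11 CPM in control larvae. In this cluster both rescue libraries of CG31041 lay below both control libraries, while those of CG11470 lay above.

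**Figure D3:**
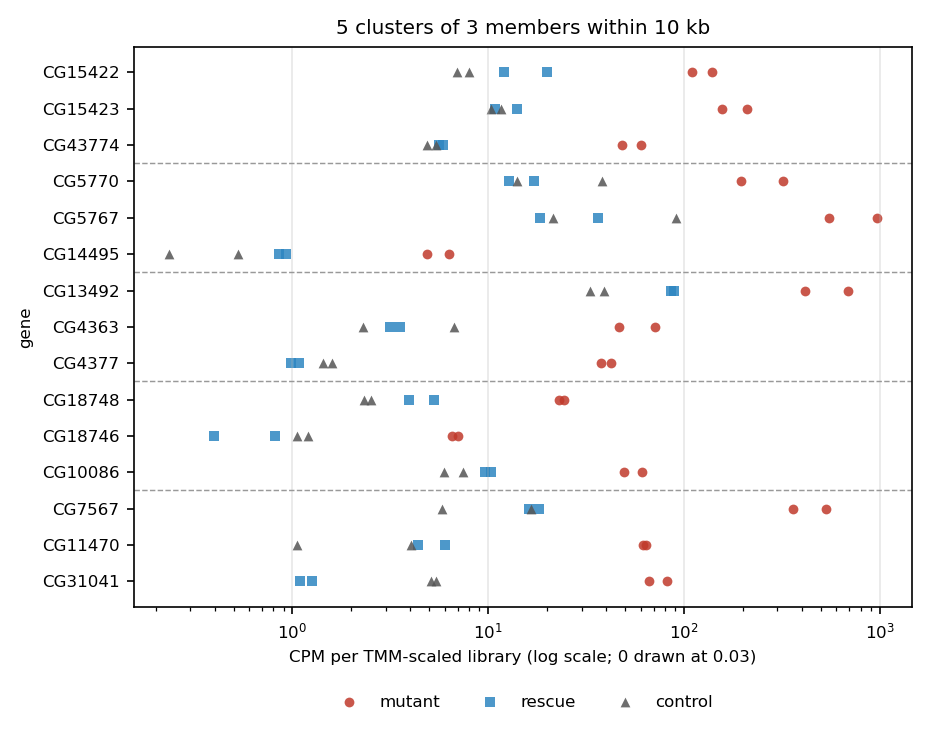
CPM per TMM-scaled library (log scale) in the 2 mutant, 2 rescue and 2 control libraries for the 15 genes of the 5 clusters of 3, separated by dashed lines. Mutant values stand to the right throughout, as for CG5767 at 552 and 964 CPM in mutant, 36.5 and 18.3 CPM in rescue and 90.7 and 21.4 CPM in control larvae.

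Genes beside the 119 that are not among them were then examined, a list chosen after the data had been seen. For each of the 119, only the nearest protein-coding gene on each side that did not overlap it was taken, if within 10 kb. Those not among the 119 numbered 158, of which 130 were tested in the edgeR fit. Of these, 39 were called higher and 4 lower in mutant than in control larvae, that is 30.0% and 3.08%, beside 9.94% and 7.04% of all genes tested. Without mutant 1 the count of 39 became 20, and without mutant 2 it became 24. The median log2 fold change of the 130 neighbours was 0.44, and that of all genes was -0.02. Whether near-identical copies among neighbouring genes share reads was not tested. Against rescue, 37 neighbours (28.5%) were called higher and 8 (6.15%) lower in mutant larvae, beside 8.47% and 7.61% of all genes tested; both comparisons use the mutant libraries.

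Of the 39 neighbours, 30 were at least 4-fold higher. The share that was at least 4-fold among all genes called higher was not computed, so this count is a description only. Of the 39, 37 were CG-numbered, as were 88 of all 130 tested neighbours, and 33 lay within 2 kb of one of the 119 genes, as did 96 of the 130. The share called among all CG-numbered genes was not computed, so what position adds to gene class was not tested. The largest change was that of Muc55B, a mucin gene 97 bases from CG14495. It had 785 and 1358 CPM in mutant, 13.3 and 4.69 CPM in rescue and 3.61 and 5.17 CPM in control larvae, a log2 fold change of 7.92 (SE 0.67, adjusted p = 7.73e-04). Muc55B met both the level and the ratio thresholds and was not among the 119 because the deposited data list it by a name. The other named neighbour called higher was lectin-37Db, a C-type lectin gene near Alp12, with 4.23 and 1.67 CPM in mutant, 0.399 and 0.328 CPM in rescue and 0.301 and 0.352 CPM in control larvae.

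CG11911, 853 bases from CG33127, had 1902 and 2117 CPM in mutant, 665 and 44.3 CPM in rescue and 41.9 and 55.3 CPM in control larvae. It was called higher in mutant than in control larvae (log2 fold change 5.37, SE 1.14, adjusted p = 0.0215), and rescue 1 stood far above rescue 2. CG7252, a neighbour of CG5883 on 3L, had 99.3 and 170.4 CPM in mutant, 30.1 and 27.4 CPM in rescue and 9.92 and 12.2 CPM in control larvae. Its change of 3.61 (SE 0.31, adjusted p = 8.06e-04) came with a ratio of 3.03 by the rule, under the threshold of 4. Between CG7252 and CG7248, obst-G, a gene named for a chitin-binding obstructor protein, had 28.4 and 18.5 CPM in mutant, 7.35 and 18.2 CPM in rescue and 6.84 and 8.98 CPM in control larvae and was not called (1.56, SE 0.45, adjusted p = 0.0542).

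**Figure D4:**
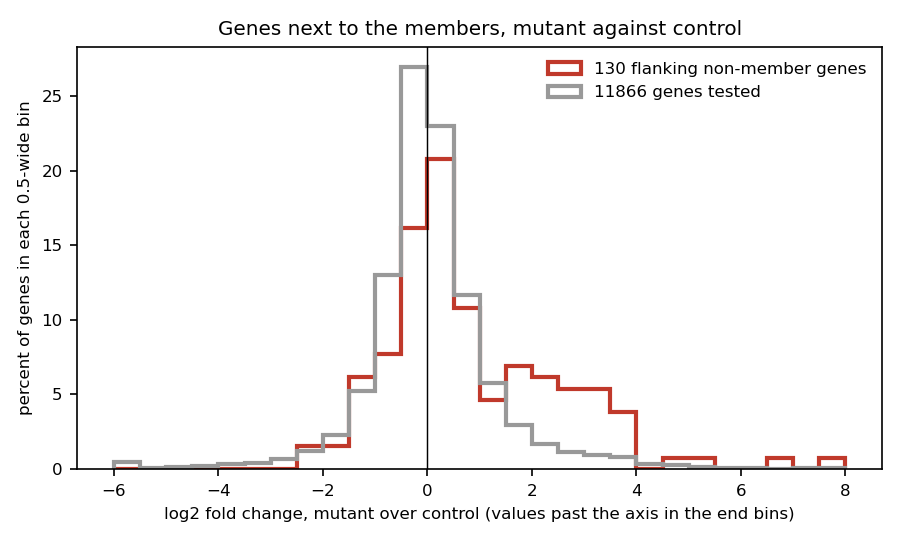
Percent of genes in each bin of 0.5 on the log2 fold change axis, mutant over control, for the 130 tested neighbours that are not among the 119 (red) and all 11866 genes tested (grey). The neighbours have a longer right side, with 39 called higher, and a median of 0.44 beside -0.02 for all genes.

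Rescue against control is the difference that the rule did not fix, since it only capped both groups. In the edgeR fit, 0.354% of all genes were called higher and 0.287% lower in rescue than in control larvae. Of the 119 genes, 1 was called higher and 1 lower, CG15784 and CG31041, and at an unadjusted p under 0.05 the numbers were 32 and 13. Over all genes, 9.16% were higher and 9.67% lower at that unadjusted level. The median log2 fold change of the 119 genes was 0.38, beside 0.07 over all genes tested, and 81 of the 119 were positive, beside 55.7% of all genes. Of the 119, 10 passed the filter through their mutant counts only. Without them the median was 0.37, 74 of 109 were positive, 29 and 11 were higher and lower at the unadjusted level, and the calls were again 1 and 1. DESeq2 called more of the 119 genes, and more of all genes, in each direction, with the counts given in the last section. Leaving out libraries one at a time kept the median between 0.22 and 0.44.

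CG15784 was higher in rescue than in control larvae by a log2 fold change of 1.73 (SE 0.24, adjusted p = 0.0381), with 705 and 607 CPM in rescue and 199 and 195 CPM in control larvae. CG31041 was lower, with a log2 fold change of -2.16 (SE 0.24, adjusted p = 0.0263), with 1.25 and 1.09 CPM in rescue and 5.41 and 5.11 CPM in control larvae. Their groups did not overlap. The call of CG15784 was lost when only rescue and control libraries were fitted (adjusted p = 0.0990) and when any library other than control 2 was left out (0.0739 to 0.0981), and over all alternatives its adjusted p ran between 5.75e-13 and 0.0990. The call of CG31041 was lost with only rescue and control libraries (0.110) and without mutant 1, mutant 2 or rescue 2 (0.0721, 0.0764 and 0.0773), within a range of 3.43e-07 to 0.110 over all alternatives. Without control 2, 10 of the 119 genes were called higher and 6 lower, as 365 and 413 of all genes were.

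Close to the threshold stood CG10725, with 534 and 475 CPM in mutant, 79.1 and 107 CPM in rescue and 30.4 and 36.2 CPM in control larvae (log2 fold change 1.49, adjusted p = 0.0545), CG31198 (1.35, adjusted p = 0.0583) and CG42369 (-1.34, adjusted p = 0.0583). These genes were picked after their values were seen. CG42369 had 127 and 93.5 CPM in mutant, 3.25 and 4.09 CPM in rescue and 9.39 and 9.28 CPM in control larvae. Larger differences with more spread were those of CG3819, at 3.65 with 421 and 609 CPM in mutant, 87.2 and 12.8 CPM in rescue and 1.13 and 6.69 CPM in control larvae, and CG33128, at -2.01. Neither passed the test, with adjusted p of 0.125 and 0.186.

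Both rescue libraries lay above both control libraries in 52 of the 119 genes and below them in 22, while 45 overlapped. Over all genes tested the shares above and below were 30.7% and 23.5%. With CPM of column totals the split of the 119 genes was 64 above, 13 below and 42 overlapping. Read as ratios of group means, the median of rescue over control was 1.30 with TMM scaling and 1.63 with column totals.

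**Figure D5:**
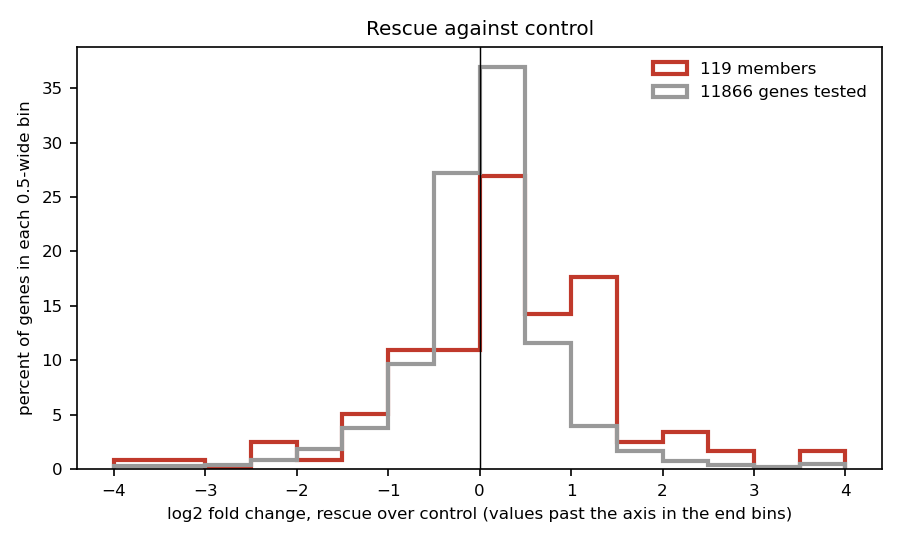
Percent of genes in each bin of 0.5 on the log2 fold change axis, rescue over control, for the 119 genes (red) and all 11866 genes tested (grey). The 119 genes have a median of 0.38 beside 0.07 for all genes.

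For the 119 genes, libraries of the same genotype differed more often in rescue and control larvae than in mutant larvae. The rule requires both mutant libraries to be high and only caps the others, so this difference is set in part by the selection. Levels were also lower in rescue and control larvae, and the part of low counts was not tested. The mutant libraries were within 2-fold of each other for 110 of the 119 genes, the rescue libraries for 87 and the control libraries for 82. Among 8498 tested genes with a mean mutant CPM of at least 5, the shares within 2-fold were 96.4%, 96.0% and 92.2% for mutant, rescue and control. CG32751 differed most in mutant larvae besides Alp7, with 105 and 625 CPM in mutant, 4.900 and 4.53 CPM in rescue and 2.25 and 3.58 CPM in control larvae. In control larvae, control 1 was the higher in CG31446, with 29.5 and 38.6 CPM in mutant, 1.54 and 0.819 CPM in rescue and 4.21 and 0.235 CPM in control larvae, and control 2 in CG6839, with 673 and 751 CPM in mutant, 58.98 and 39.96 CPM in rescue and 2.56 and 18.9 CPM in control larvae. Control 1 was at least 2-fold above control 2 in 21 genes and at least 2-fold below it in 16, so neither control library was the higher one throughout.

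The genes nearest the ratio threshold show how the rule divides a continuum. Just inside were CG9682, CG18748 and CG3344 (hiro in RefSeq), with ratios of 4.03, 4.07 and 4.11. Just outside were CG13102, CG8773 and CG14694, with ratios of 3.98, 3.98 and 3.97. CG8773 had 312 and 497 CPM of column totals in mutant, 78.4 and 38.2 CPM in rescue and 11.6 and 13.95 CPM in control larvae.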

How the data were processed

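Polyadenylated RNA of 6 larval libraries, 2 per genotype, was grouped by the genotype in the labels. The authors deposited raw read counts per gene, with gene names, positions, strands and gene lengths per the file headers, and FPKM values, which the authors scaled to gene length and to denominators of 80.4% to 113% of the library totals. No aligner, counting tool, strand setting or build is given in the sources used here. RefSeq Release 6 supplied names, and an Ensembl BDGP6 annotation the exon numbers of canonical transcripts.

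Counts were tested with edgeR 4.0.16 in R 4.3.3 (quasi-likelihood, all 6 libraries in 1 fit, TMM factors, no block). Of 17908 genes, 11866 passed filterByExpr at a minimum count of 10. P-values were adjusted over them by Benjamini-Hochberg and called under 0.05, and log2 fold changes use a prior count of 0.125. The biological coefficient of variation was 0.269, with 3 residual degrees of freedom and 4.26 from the prior. The code was tested on simulated data. DESeq2 1.42.0, RLE size factors, no filter, a block for the replicate number, other settings of the rule and leaving out each library were the alternatives. Replicate numbers did not pair the libraries: correlations of their deviations from group means were 0.02, 0.04 and 0.06.

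The genes named are the 12 with the highest mean mutant CPM, the 8 with the highest ratio, those called in rescue against control, up to 2 of each RefSeq enzyme class, up to 2 of each cluster of 3, and the 3 on either side of the ratio threshold. Other genes given with values were picked for their RefSeq name, position or library spread after their values were seen. The 119 genes, the marker lists and the tests were chosen with earlier results of these data known. Of the marker genes, Mag, NPC1b and Larp6 had no match in the table. A floor of 3 counts stands for a total of 0, and intervals are exact at 95%. No promoter or protein sequences were used here.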

Additional observations from a re-analysis of the deposited data

How the results depend on the processing

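The number of genes meeting the rule was 41 at a ratio of 8, 122 with TMM-scaled CPM (115 shared), 116 with FPKM (107 shared, an alternative added after the data were seen) and 121 to 170 with 1 library left out. Most totals of calls were sensitive to single libraries. Leaving out 1 library gave 475 to 1042 genes higher and 136 to 888 lower in mutant than in control, and 284 to 1304 higher and 116 to 1203 lower in mutant than in rescue, beside 1180, 835, 1005 and 903 with all libraries. In rescue against control it gave 8 to 365 genes higher and 4 to 413 lower, with 0 to 10 of the 119 genes higher and 0 to 6 lower. The median log2 fold change of the 119 genes stayed between 0.22 and 0.44. DESeq2 called 1312 genes lower in mutant than in control, and in rescue against control 378 genes higher and 618 lower, 21 and 4 of them among the 119. With no filter these were 200, 278, 11 and 2. With only rescue and control libraries edgeR gave 7, 4, 0 and 0, with 22 and 7 of the 119 at an unadjusted p under 0.05. The causes were not tested. The replicate numbers did not pair the libraries; with the replicate block, rescue against control gave 48 genes higher and 69 lower, and 1 and 1 of the 119. Of 370 values of 34 named genes in rescue against control under 11 settings, 327 kept direction and call, 19 became called, 10 lost a call and 14 reversed, each with 1 library left out and none called. With 1 library left out, the log2 fold changes of those that reversed ran between -0.45 and 0.26 for CG7290, -1.72 and 0.36 for CG5767, -0.059 and 1.36 for CG10910, -0.50 and 0.13 for CG3344, -1.35 and 0.095 for CG5770. They ran between -0.017 and 0.35 for CG15423, -0.26 and 1.45 for CG4835, -0.999 and 0.55 for CG4363, -1.70 and 2.41 for CG3292, -1.16 and 2.38 for CG12766. Levels of a few counts, as in CG7248, CG34026, CG18404, CG15127 and CG11384, limit how large their ratios can be shown to be.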
